A study of Mus musculus with 21 samples.

Results

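The p53 pathway genes described here are *Trp53*, *Mdm2*, *Cdkn1a*, *Cdkn2a*, *Ccng1*, *Gadd45a*, *Sesn2*, *Bax*, *Phlda3* and *Eda2r*. They were chosen by name, with earlier results of these data known. Each matched 1 row of the 55487 genes in the skin table and in the lymph node table. All 10 passed the filter on low counts in skin, where 19101 genes were tested. In lymph nodes 9 passed among 16173 tested genes, and *Eda2r* did not. RNA sequencing covered 9 skin libraries and 12 libraries of inguinal skin-draining lymph nodes (SDLN) from wild-type (WT) mice and from mice that carry the *Ifnk* transgene (*Ifnk* TG). The transgene places *Ifnk*, which encodes interferon κ, under the keratin 14 promoter of basal keratinocytes, and the TG line was backcrossed to the BALB/c background that the WT mice share. Skin came from untreated mice of 12 months, with 3 libraries of WT skin, 2 of nonlesional *Ifnk* TG skin (NL) and 4 of lesional *Ifnk* TG skin (L). SDLN came from mice whose age is not given in the labels, with 3 libraries each of WT and *Ifnk* TG without treatment (NoTx) and 3 each after UV. UV was UVB at 250 mJ/cm2 on 3 days per week for 2 weeks, followed by 2 weeks of observation. The labels number the libraries separately but do not name animals, sex or body site, and do not say whether NL and L skin came from the same mice, so p-values measure only the spread between these libraries, which may be technical. The paper reports that lesional skin was removed at any site with a lesion. Its nonlesional skin came from the back and from places comparable to the lesions. Body site can therefore differ between L skin and the other skin, and its part in the results was not tested.

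p53, encoded by *Trp53*, is a transcription factor that is stabilised when DNA is damaged or when cells are stressed, and much of its control acts on the protein and not on the RNA. It switches on genes that halt the cell cycle, aid repair or lead to cell death, and it also switches on its own inhibitor MDM2. In skin the pathway is known above all for the response of keratinocytes to ultraviolet light. As *Trp53* transcript does not report p53 protein, the RNA of its target genes is the usual readout in expression data.

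p53 binds pairs of short half-sites. The letters of a half-site were looked for on both strands of the promoters of all members, since 4 of them were higher together in L skin. Promoters were taken from RefSeq on GRCm38.p6 as windows of 300 bases that reach from 250 bases before a transcription start to 50 after it. All 10 members had a window, and *Cdkn1a* and *Cdkn2a* had 2 each. A half-site was present in a window of 6 members, *Trp53*, *Cdkn1a*, *Gadd45a*, *Bax*, *Ccng1* and *Mdm2*. Counted by window, these were 6 of the 12 windows of members, beside 8.36% of all 32851 windows. Members were chosen as p53 pathway genes, so their share is not independent of that choice. The members with a half-site include *Ccng1*, which was lower in L skin, and *Mdm2*, which was not called. The parts before the start are printed for these 6, 5′ to 3′ in the direction of transcription, with the half-sites in capitals.
Trp53, chr11:69580109-69580358, plus strand: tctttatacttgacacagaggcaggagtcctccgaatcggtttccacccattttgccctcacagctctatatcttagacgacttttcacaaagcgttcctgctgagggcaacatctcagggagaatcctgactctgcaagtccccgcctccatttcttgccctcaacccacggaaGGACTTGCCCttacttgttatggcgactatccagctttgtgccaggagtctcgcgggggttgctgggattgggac
Cdkn1a, chr17:29090729-29090978, plus strand: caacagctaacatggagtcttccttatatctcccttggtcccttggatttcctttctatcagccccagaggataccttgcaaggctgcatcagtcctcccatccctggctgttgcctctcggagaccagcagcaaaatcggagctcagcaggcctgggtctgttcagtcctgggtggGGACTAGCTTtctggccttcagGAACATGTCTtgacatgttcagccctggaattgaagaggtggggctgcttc
Gadd45a, chr6:67037408-67037657, minus strand: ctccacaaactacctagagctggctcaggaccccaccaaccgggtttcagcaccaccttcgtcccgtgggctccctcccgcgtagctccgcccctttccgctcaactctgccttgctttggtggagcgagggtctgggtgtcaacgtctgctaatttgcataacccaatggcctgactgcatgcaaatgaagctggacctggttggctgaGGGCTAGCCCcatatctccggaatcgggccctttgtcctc
Bax, chr7:45466899-45467148, minus strand: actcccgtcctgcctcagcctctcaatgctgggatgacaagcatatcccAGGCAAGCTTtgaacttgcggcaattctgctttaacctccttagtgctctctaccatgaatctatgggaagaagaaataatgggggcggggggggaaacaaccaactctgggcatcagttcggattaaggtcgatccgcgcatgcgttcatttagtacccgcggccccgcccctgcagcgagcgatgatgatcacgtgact
Ccng1, chr11:40755287-40755536, minus strand: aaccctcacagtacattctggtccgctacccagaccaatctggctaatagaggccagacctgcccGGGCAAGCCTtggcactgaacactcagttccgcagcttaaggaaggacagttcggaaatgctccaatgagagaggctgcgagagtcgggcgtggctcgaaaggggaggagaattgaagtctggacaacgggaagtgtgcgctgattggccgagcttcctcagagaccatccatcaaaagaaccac
Mdm2, chr10:117710759-117711008, minus strand: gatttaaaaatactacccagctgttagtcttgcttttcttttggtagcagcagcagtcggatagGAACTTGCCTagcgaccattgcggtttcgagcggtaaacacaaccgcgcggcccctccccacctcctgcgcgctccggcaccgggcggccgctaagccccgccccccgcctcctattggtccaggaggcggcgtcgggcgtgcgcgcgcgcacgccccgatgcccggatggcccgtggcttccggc
The half-site began 75 bases before the start in *Trp53*, 40 in *Gadd45a*, 201 in *Bax*, 185 in *Ccng1* and 186 in *Mdm2*. *Cdkn1a* held 2 half-sites in the first of its windows, which began 73 and 51 bases before the start, and none in the other window. These 2 half-sites do not adjoin. The bases directly after the second match the half-site letters except at the first position and stayed in lower case. Only exact matches to RRRCWWGYYY were marked, where R is A or G, W is A or T and Y is C or T. These letters were not in the windows of *Cdkn2a*, *Sesn2*, *Phlda3* and *Eda2r*. The interferon gamma activated site (TTCNNNGAA, in 8.3% of all windows) and the interferon-stimulated response element (in 3.44%) were in no window of a member. A match is a description of the letters and was not tested as a binding site.

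The skin libraries held 40499078 to 56511276 counts and the SDLN libraries 27599809 to 36428435. Keratinocyte markers had a mean of 9.94 to 11.23 log2 CPM (edgeR's counts-per-million scale after normalisation of library sizes) in every skin library. T cell markers lay at 8.15 to 8.53 and B cell markers at 7.64 to 8.59 in the SDLN libraries. *Ifnk* itself had 0 counts in the 3 WT skin libraries, 6 and 0 in NL and 5 to 14 in L skin, and 0 in all 12 SDLN libraries. Whether transgene transcripts are counted under *Ifnk* was not tested. *Xist*, which is transcribed from the inactive X chromosome of females, was at 0.132 CPM in L replicate 6, 0.319 in NL replicate 3 and 78.9 to 179 CPM in the other 7 skin libraries, so both skin groups of TG mice were mixed in this respect. It was at or below 1.46 CPM in the SDLN libraries.

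Levels of the members differed widely between genes and between the tissues. On the scale of CPM per kilobase of exon, *Ccng1*, which encodes cyclin G1, was the highest member in WT skin at 190 ± 24.5 (SD, n = 3). *Phlda3*, a repressor of AKT signalling, followed at 93.1 ± 20.6 and *Cdkn1a*, which encodes the cyclin-dependent kinase inhibitor p21, at 42.7 ± 1.93. *Bax*, a pore-forming protein of mitochondrial cell death, was at 13.6 ± 0.549. *Mdm2* (8.78 ± 1.05) and *Sesn2* (8.59 ± 1.5) differed by less than their SD. *Trp53* lay at 7.02 ± 0.148, *Gadd45a* at 6.58 ± 0.228, *Eda2r* at 3.25 ± 1.39 and *Cdkn2a* at 0.837 ± 0.606. In untreated WT SDLN, *Ccng1* (57.9 ± 2.43) was followed by *Trp53* (41.9 ± 1.57), *Bax* (27.1 ± 2.91) and *Mdm2* (14.1 ± 0.585). *Gadd45a* (3.04 ± 0.649) and *Sesn2* (2.48 ± 0.391) came next, and their difference was smaller than the SD of *Gadd45a* but not that of *Sesn2*. *Cdkn1a* was at 1.49 ± 0.269 CPM per kilobase in these SDLN, *Cdkn2a* at 0.623 ± 0.230 and *Phlda3* at 0.512 ± 0.140. *Eda2r*, a death receptor of the TNF receptor family, had 0 to 6 counts in an SDLN library. The tissues were normalised separately, so levels in skin and SDLN are set side by side without a test.

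L skin was compared with WT skin to ask how the pathway stood in the lesions that *Ifnk* TG mice develop with age. The members did not move one way. *Trp53*, *Cdkn1a*, *Gadd45a* and *Bax* rose in L skin, while *Ccng1*, *Eda2r* and *Phlda3* fell. With edgeR's quasi-likelihood test, 7 of 10 members passed an adjusted p of 0.05, 4 higher and 3 lower. Of all tested genes 43.1% passed (23.0% higher and 20.2% lower), and 7 members had L and WT libraries that did not overlap, against 49.4% of all genes. The median log2 fold change of the members was 0.38 and that of all genes 0.06. The count of 7 was the same when any 1 of the 9 skin libraries was left out. With a list of skeletal muscle genes as a covariate it was 3, when *Trp53*, *Gadd45a*, *Phlda3* and *Eda2r* no longer passed. The mean of that list did not overlap between L and WT libraries, so the covariate carries part of the group difference. A call lost with it does not measure the part of muscle RNA, which was not tested. In bulk tissue, fewer cells of a type and less RNA per cell cannot be told apart. Body site may also differ between L and WT skin, and its part was not tested.

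*Trp53* (ENSMUSG00000059552, chromosome 11 from 69580359 to 69591873) was at 28.1, 29.1 and 28.0 CPM in WT replicates 8, 9 and 10. It was at 42.8 and 32.2 CPM in NL replicates 2 and 3, and at 38.3, 49.6, 54.4 and 57.6 CPM in L replicates 4 to 7. Every L library and both NL libraries lay above all WT libraries, while L replicate 4 lay below NL replicate 2. The difference between L and WT skin was 0.81 on the log2 scale (SE 0.16, 1.76-fold, adjusted p = 0.00367 by edgeR).

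*Cdkn1a* (ENSMUSG00000023067, chromosome 17 from 29090976 to 29100727) is the classical target through which p53 arrests the cell cycle. It was at 156, 156 and 144 CPM in WT, 185 and 187 CPM in NL, and 223, 276, 262 and 271 CPM in L skin. The 3 groups did not overlap, with WT lowest and L highest. L skin exceeded WT skin by 0.77 on the log2 scale (SE 0.10, 1.70-fold, adjusted p = 0.000733 by edgeR).

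*Gadd45a* (ENSMUSG00000036390, chromosome 6 from 67035096 to 67037457), a stress sensor linked to arrest and repair, was at 12.1, 11.3 and 11.4 CPM in WT and at 11.3 and 11.8 CPM in NL skin. In L skin it was at 19.8, 18.7, 13.9 and 20.7 CPM. L replicate 6 was the lowest of its group and still above all NL and WT libraries. The log2 fold change against WT was 0.65 (SE 0.15, adjusted p = 0.00787 by edgeR).

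*Bax* (ENSMUSG00000003873, chromosome 7 from 45461697 to 45466898) was at 20.5, 21.4 and 22.3 CPM in WT and at 23.5 and 22.3 CPM in NL skin. It reached 36.3, 44.5, 34.9 and 37.6 CPM in L skin, above every other library. The deposited counts of *Bax* were exactly 900 in each of the 3 WT libraries, although these differed in depth. It was the only 1 of 9023 genes with a mean of at least 600 counts in WT skin for which all 3 were equal, so the SD of WT skin for this gene reflects library size alone. Why they are equal was not tested. The comparison with NL skin does not use these values as a group, but they enter the estimate of spread behind its SE and p-value. *Bax* had the largest called increase of the members, with a log2 fold change of 0.84 (SE 0.11, 1.79-fold, adjusted p = 0.000544 by edgeR).

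*Ccng1* (ENSMUSG00000020326, chromosome 11 from 40748552 to 40755311) encodes cyclin G1, a p53 target that feeds back on MDM2. It was at 571, 704 and 731 CPM in WT and at 502 and 643 CPM in NL skin. In L replicates 4 to 7 it was at 214, 78.3, 108 and 122 CPM. Every L library was far below every other library, and L replicate 4 was the highest of the lesions. *Ccng1* fell by 2.36 on the log2 scale, or 5.13-fold (SE 0.31, adjusted p = 0.000666 by edgeR), the largest difference of any member.

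*Eda2r* (ENSMUSG00000034457, chromosome X from 97333840 to 97377216) was at 16.1, 12.9 and 28.4 CPM in WT, 13.5 and 11.7 CPM in NL, and 6.43, 4.46, 5.07 and 4.14 CPM in L skin. WT replicate 10 stood above the other WT libraries, and no L library reached a WT or NL library. L skin was lower by 3.81-fold (log2 fold change −1.93, SE 0.28, adjusted p = 0.000915 by edgeR). The difference was also called without WT replicate 10.

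*Phlda3* (ENSMUSG00000041801, chromosome 1 from 135766119 to 135769136) was at 181, 118 and 136 CPM in WT and at 139 and 119 CPM in NL skin. L skin had 98.6, 84.4, 99.2 and 100 CPM, with L replicate 5 below its group. The lowest WT library was above the highest L library. The log2 fold change was −0.60 (SE 0.15, 1.52-fold lower, adjusted p = 0.0113 by edgeR).

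The remaining 3 members did not pass the test. *Mdm2* (ENSMUSG00000020184, chromosome 10 from 117688875 to 117710758), the ubiquitin ligase that degrades p53, was at 48.4, 38.5 and 46.9 CPM in WT, 40.2 and 41.3 CPM in NL, and 39.5, 39.6, 40.6 and 40.6 CPM in L skin. The L libraries were close to each other and inside the range of WT skin. The log2 difference from WT was −0.15, with a 95% interval of −0.37 to 0.06 (adjusted p = 0.223 by edgeR). *Sesn2* (ENSMUSG00000028893, chromosome 4 from 132492032 to 132510501), a stress-induced restraint on mTORC1, was at 26.5 to 35.8 CPM in WT, 27.8 and 31.9 in NL and 28.3 to 35.5 in L skin. Its interval for L against WT was −0.22 to 0.42 on the log2 scale (adjusted p = 0.584). *Cdkn2a* (ENSMUSG00000044303, chromosome 4 from 89274471 to 89294653) encodes p16INK4a and p19ARF in different reading frames, and a count per gene does not separate their transcripts. It had 39, 73 and 13 counts in WT, 30 and 17 in NL, and 94, 113, 67 and 39 in L skin. The groups overlapped, and the interval for L against WT was wide, from −0.59 to 2.11 (adjusted p = 0.334).

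**Figure D1:**
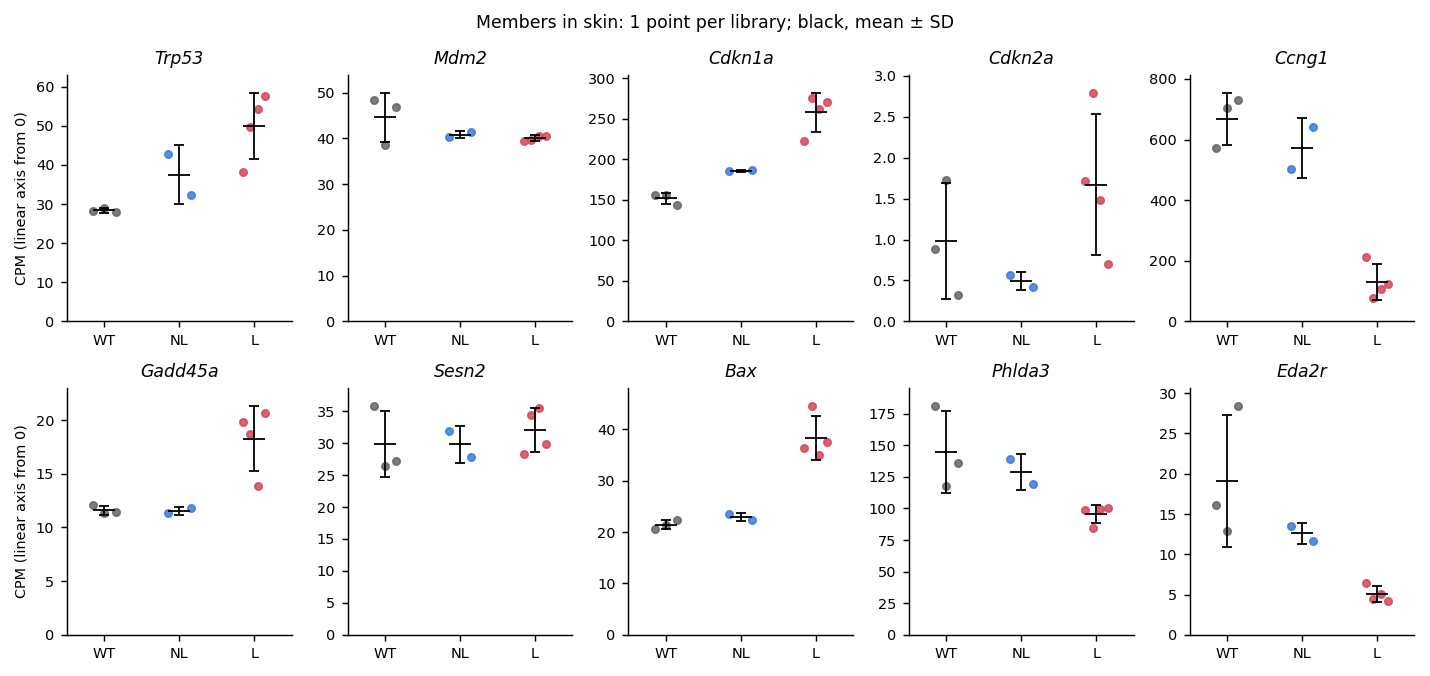
Each panel shows 1 member in skin as CPM on a linear axis from 0, with 1 point per library and the mean ± SD in black for WT (3 libraries), NL (2) and L (4). *Ccng1* in L skin sits between 78.3 and 214 CPM, under all NL and WT libraries, while *Bax* in L skin sits between 34.9 and 44.5 CPM, above all of them.

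In L against NL skin, 5 of 10 members passed the test, 3 higher and 2 lower, against 25.0% of all tested genes (13.2% higher and 11.8% lower). Libraries did not overlap for 7 members and for 49.4% of all genes. *Bax* rose by 0.74 on the log2 scale (SE 0.12, adjusted p = 0.0042 by edgeR), *Gadd45a* by 0.66 (SE 0.17, 0.0238) and *Cdkn1a* by 0.47 (SE 0.12, 0.0206). *Ccng1* fell by 2.13 (SE 0.33, adjusted p = 0.00366) and *Eda2r* by 1.32 (SE 0.30, 0.0145). *Trp53* (0.41, SE 0.18, adjusted p = 0.119), *Phlda3* (−0.43, SE 0.17, 0.0889) and *Cdkn2a* (1.74, SE 0.73, 0.113) did not pass. All 4 L libraries had a higher *Cdkn2a* CPM than both NL libraries, and DESeq2 gave this difference an adjusted p of 0.043, with a range of 0.043 to 0.524 over the alternatives that keep every library. L against NL and L against WT share the L libraries. The comparison rested on 2 NL libraries, and without NL replicate 2 *Cdkn1a*, *Gadd45a* and *Eda2r* were no longer called (adjusted p = 0.132, 0.148 and 0.104). Without NL replicate 3 the calls of *Cdkn1a* (0.128), *Gadd45a* (0.122), *Bax* (0.0564) and *Eda2r* (0.0725) were lost. *Trp53* passed without L replicate 4 (adjusted p = 0.027), and *Phlda3* passed without WT replicate 8 (0.0425).

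NL skin was compared with WT skin to ask whether the pathway differed in TG skin outside lesions. With edgeR 0 of 10 members and 0% of all genes passed, while 1465 genes had an unadjusted p under 0.05. DESeq2 called 63 genes and no member. At an unadjusted p under 0.05 there was 1 member, *Cdkn1a*, at 0.29 on the log2 scale (SE 0.12, adjusted p = 0.645), with both NL libraries above all WT libraries. *Trp53* (0.40, 95% interval −0.01 to 0.82, adjusted p = 0.66) and *Bax* (0.10, −0.18 to 0.38, 0.856) also had both NL libraries above WT. For *Bax*, NL replicate 3 and WT replicate 10 both rounded to 22.3 CPM, and the WT libraries held the equal counts described above. Of all genes 35.0% did not overlap in this comparison, and 3 of 10 members did so. The interval for *Ccng1* reached from −1.06 to 0.61, so a change of the size seen in L skin lies outside it.

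**Figure D2:**
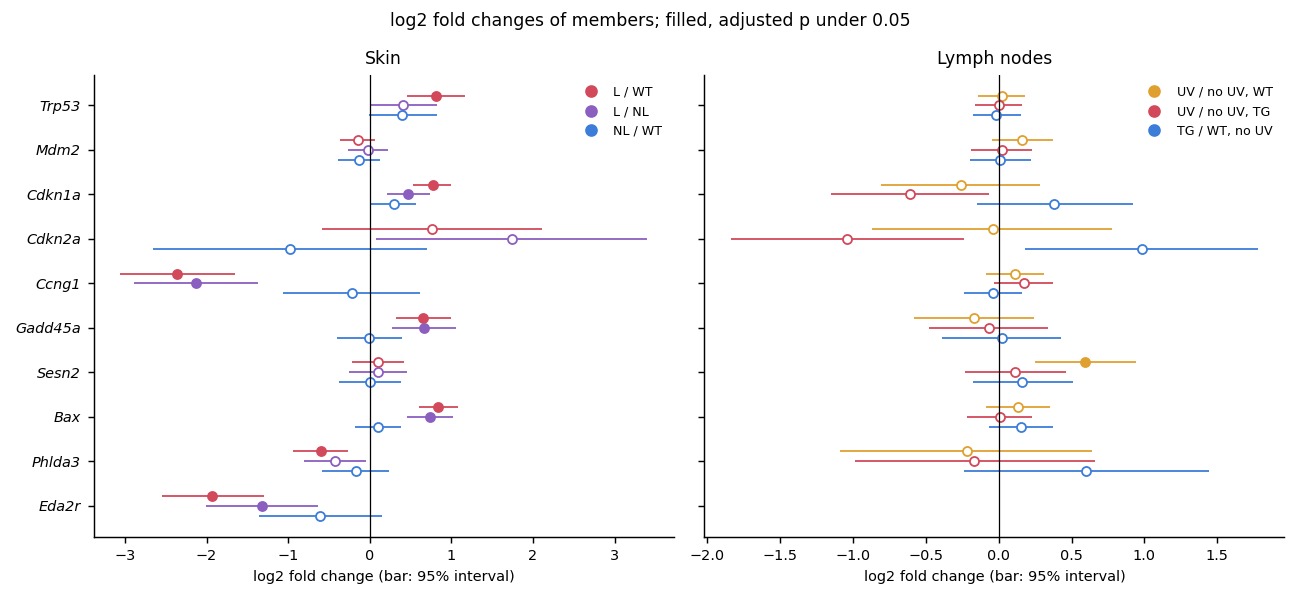
Points are log2 fold changes of each member from edgeR with 95% intervals, filled where the adjusted p was under 0.05, for 3 skin comparisons on the left and 3 SDLN comparisons on the right. In L against WT skin 7 members are filled, from *Ccng1* at −2.36 to *Bax* at 0.84, and in SDLN only *Sesn2* after UV in WT mice is filled; *Eda2r* was not tested in SDLN.

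Other tissues and cell types moved with the lesions. The mean log2 CPM of 10 skeletal muscle genes was 11.37 to 11.86 in WT, 11.24 and 11.43 in NL, and 9.70, 1.78, 5.48 and 7.29 in L replicates 4 to 7. None of these genes was at 0 in a skin library, the lowest having 27 counts. In L against WT skin 3 of 10 were called lower, beside 20.2% of all tested genes. The summed level of the list was 35100 to 48600 CPM in WT, 32500 and 38400 in NL and 53.4 to 9780 CPM in L skin. Within L skin *Ccng1* had the same order as the muscle list, highest in replicate 4 and lowest in replicate 5. *Eda2r* was also highest in L replicate 4 but lowest in replicate 7, at 4.14 CPM. *Bax* was highest in L replicate 5, which had the least muscle RNA, and lowest in replicate 6, at 34.9 CPM. Neither gene followed the order of the muscle list or its reverse. With the muscle list as a covariate, an alternative chosen after seeing the data, 3 of 10 members were called in L against WT skin. *Ccng1* was then at −1.46 (SE 0.24, adjusted p = 0.00833), *Bax* at 0.65 (SE 0.16, 0.0302) and *Cdkn1a* at 0.58 (SE 0.15, 0.0429). Adjusted p-values in that fit were 0.0522 for *Eda2r* (−1.61), 0.0686 for *Gadd45a* (0.76), 0.143 for *Trp53* (0.62) and 0.252 for *Phlda3* (−0.47). Their SE, in this order, were 0.46, 0.24, 0.25 and 0.25 in that fit and 0.28, 0.15, 0.16 and 0.15 without the covariate. As the list's mean set L apart from all other libraries, the fit separates muscle RNA from lesion status only through differences within groups. Over all alternatives that keep every library the adjusted p reached from 1.05e-12 to 0.00833 for *Ccng1*, from 1.42e-08 to 0.0302 for *Bax* and from 5.98e-09 to 0.0429 for *Cdkn1a*. In L against NL skin with this covariate only *Ccng1* was called (−1.29, SE 0.25, adjusted p = 0.0226).

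**Figure D3:**
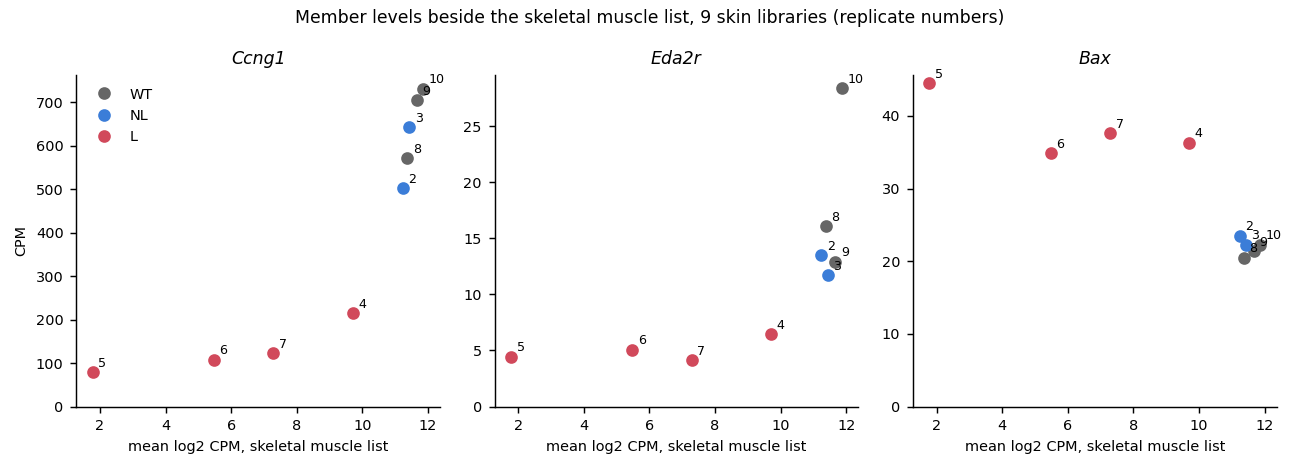
Each point is 1 of 9 skin libraries, labelled with its replicate number, with the mean log2 CPM of 10 skeletal muscle genes on the x axis and the CPM of *Ccng1*, *Eda2r* or *Bax* on a linear y axis from 0. WT and NL libraries lie together at 11.24 to 11.86, the L libraries spread from 1.78 to 9.70, and *Ccng1* in L skin is highest in replicate 4 at 214 CPM.

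Counts of the other marker lists stand beside 23.0% of all tested genes called higher and 20.2% called lower in L against WT skin. Adipocyte genes were called lower in 4 of 8 and hair shaft genes higher in 12 of 12 in L against WT skin. The summed level of adipocyte genes was 8090 to 11600 CPM in WT, 6790 and 7770 in NL and 832 to 4340 in L skin, and that of hair shaft genes 3.78 to 6.03, 7.30 and 8.39, and 2420 to 8030 CPM. Wound keratins were higher in 4 of 4, T cell genes in 5 of 8 and neutrophil genes in 4 of 7 tested. Keratinocyte genes were split, with 2 of 7 higher and 1 lower, and summed to 11800 to 14600 CPM in WT, 21700 and 22300 in NL and 10100 to 26600 in L skin. All 12 proliferation genes were higher, with a summed level of 63.8 to 90.2 CPM in WT, 102 and 131 in NL and 321 to 715 in L skin. The part of these lists in the results of the members was not tested.

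Beyond the members, 47 other p53 targets were listed by the roles of their products, also with earlier results of these data known. In L against WT skin 17 rose (36.2%) and 3 fell (6.38%), beside 23.0% and 20.2% of all tested genes, and their median log2 fold change was 0.17, beside 0.06 over all genes. The same shares and median over all genes stand beside the count of each list that follows. Among targets linked to arrest, 7 of 11 were higher and 0 lower, with a median of 1.21. *Psrc1*, a microtubule-binding protein of the spindle, rose from 2.49 ± 0.508 CPM (SD, n = 3) to 16.6 ± 2.64 (SD, n = 4), and *Ckap2*, another spindle protein, from 2.98 ± 0.96 to 13.9 ± 2.69. Both are also expressed in dividing cells. *Sfn*, which encodes 14-3-3σ, a checkpoint and keratinocyte protein, rose from 282 ± 75.4 to 1100 ± 86.8 CPM (log2 fold change 1.97, adjusted p = 0.000189 by edgeR).

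Targets linked to cell death were higher in 6 of 13 and lower in 0, with a median log2 fold change of 0.31. *Bok*, a relative of *Bax*, rose by 1.52 on the log2 scale (SE 0.17), *Pidd1*, a death domain protein of caspase 2 activation, by 1.21 (SE 0.33), and *Pmaip1*, which encodes the BH3-only protein NOXA, by 1.19 (SE 0.17). *Bbc3*, which encodes the BH3-only protein PUMA, was at 4.82 CPM in L and 4.83 CPM in WT skin, and *Fas*, a death receptor, at 8.98 and 9.68 CPM, and neither passed the test.

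Metabolic and stress targets were called in both directions, 2 higher and 1 lower of 14, with a median of −0.06. *Gls2*, a mitochondrial glutaminase, rose by 1.80 on the log2 scale (SE 0.53) from 0.646 ± 0.390 to 2.26 ± 0.370 CPM, and *Sat1*, which breaks down polyamines, by 1.49 (SE 0.13). *Tigar*, a fructose bisphosphatase that restrains glycolysis, fell by 1.83 (SE 0.16, adjusted p = 0.000122 by edgeR). Of 9 repair targets, 2 were higher and 2 lower. *Pcna*, the sliding clamp of replication, rose by 0.86 (SE 0.12), whereas *Rrm2b*, the p53-inducible subunit of ribonucleotide reductase, fell by 1.16 (SE 0.11) and *Xpc*, which recognises distorted DNA, by 0.42 (SE 0.09). Of 10 regulators and family members only *Ppm1d*, which encodes the phosphatase WIP1 that switches off p53 signalling, was called, at 0.57 (SE 0.12, adjusted p = 0.00449 by edgeR). *Trp63*, the family member of basal keratinocytes, was at 222 CPM in L and 181 CPM in WT skin (adjusted p = 0.111), and *Mdm4*, the partner of MDM2, at 37.4 and 35.6 CPM (adjusted p = 0.618).

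A list of 6 other genes named as CDK inhibitors, which are not 1 family, was split as well, with 2 higher and 2 lower. *Cdkn3*, a phosphatase of CDK1 and CDK2 that peaks in dividing cells, rose by 2.51 (SE 0.51), and *Cdkn2b*, which encodes p15INK4b beside *Cdkn2a*, had 0.89 (SE 0.16). *Cdkn2c*, which encodes p18INK4c, fell by 1.16 (SE 0.33) and *Cdkn1c*, which encodes p57, by 1.02 (SE 0.24).

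Genes that sense and repair DNA damage were divided by function. Homologous recombination genes were higher in 12 of 17 and lower in 0, with a median log2 fold change of 1.42. *Exo1*, an end-resecting nuclease, was at 0.508 ± 0.0832 CPM in WT and 4.95 ± 1.96 in L skin, and the Fanconi genes *Fanca* and *Fanci* rose by 3.23 (SE 0.63) and 2.79 (SE 0.45). Checkpoint sensors and kinases were higher in 5 of 19 and lower in 2, the first near the 23.0% of all genes, and had a median of 0.03, with *Clspn*, the adaptor of CHK1, at 3.04 (SE 0.42), *H2ax*, the histone marked at breaks, at 2.04 (SE 0.25) and the kinase *Chek1* at 1.85 (SE 0.23). Nucleotide excision repair genes, which remove UV photoproducts, were higher in 5 of 17 and lower in 3, with a median of 0.06, equal to that of all genes, and both counts were near the 23.0% and 20.2% of all genes. *Ercc1*, a subunit of the incision nuclease, rose by 1.11 (SE 0.17) and *Ercc8*, a factor of transcription-coupled repair, by 0.66 (SE 0.13). Among 10 genes of cytosolic DNA sensing 4 were higher, including *Cgas*, the sensor that makes cGAMP (0.97, SE 0.17), and the ribonuclease H2 subunits *Rnaseh2b* (1.2, SE 0.19) and *Rnaseh2c* (0.98, SE 0.13). Many of the recombination and checkpoint genes are also expressed in S phase, and the list of 12 proliferation genes moved with them, led by the mitotic kinase *Bub1* at 4.02 (SE 0.40), *Plk1* at 3.45 (SE 0.41) and *Aurkb* at 3.24 (SE 0.34). Its part in these counts was not tested.

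**Figure D4:**
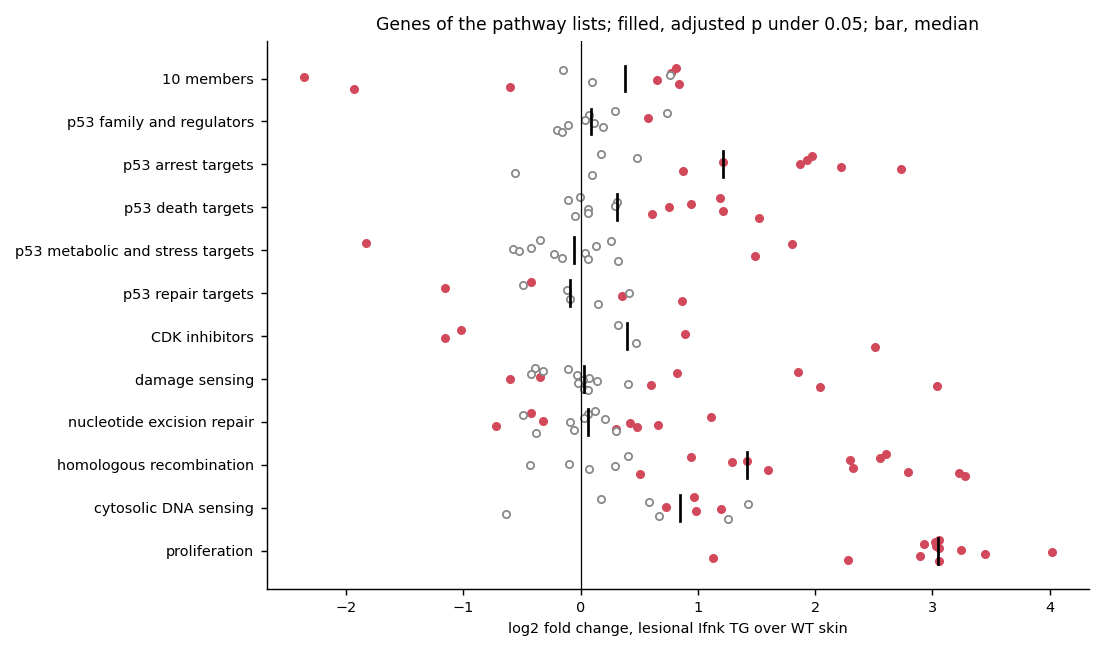
Each point is 1 gene of a list, placed by its log2 fold change in L over WT skin, filled where the adjusted p from edgeR was under 0.05, with a bar at the list's median. The 10 members fall on both sides of 0 with a median of 0.38, the recombination list has a median of 1.42, and all 12 proliferation genes lie at 1.13 or higher.

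In L against NL skin the same lists had fewer calls, with 10 of 47 other p53 targets higher (21.3%) and 4 lower (8.51%), beside 13.2% and 11.8% of all genes. *Psrc1* (1.84, SE 0.24), *Ckap2* (1.66, SE 0.29) and *Plk3*, a stress-responsive kinase (1.35, SE 0.15), led the arrest targets. *Tigar* (−1.48, SE 0.17), *Rrm2b* (−0.88, SE 0.12), *Xpc* (−0.53, SE 0.10) and *Ephx1*, an epoxide hydrolase (−0.92, SE 0.28), were lower. Recombination genes were higher in 8 of 17 and proliferation genes in 11 of 12. In NL against WT skin, where edgeR called no gene at all, the median log2 fold change of the 47 targets was 0.14.

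UV was compared with no treatment in WT SDLN, which drain the irradiated skin and were not themselves irradiated. *Sesn2* was the only member called, and it was higher after UV. It was at 9.96, 7.24 and 8.63 CPM in NoTx replicates 1, 2 and 3, and at 11.8, 15.3 and 11.9 CPM in UV replicates 7, 8 and 9. The groups did not overlap, and UV replicate 8 was the highest. The log2 fold change was 0.59 (SE 0.16, 1.51-fold, adjusted p = 0.0497 by edgeR). This call lay at the threshold, with adjusted p-values of 0.0106 to 0.0806 over alternatives that keep every library. Leaving out 1 of the 12 SDLN libraries kept the call in 2 fits, without UV replicate 10 or 12 of *Ifnk* TG mice. It was lost in the fits without each of the other 10, with an adjusted p up to 0.224 without WT UV replicate 8. Of all tested genes 4.98% passed (2.92% higher and 2.06% lower), and 1 of 9 tested members did. Libraries of 2 members did not overlap, against 37.1% of all genes. The second was *Mdm2*, at 72.6, 74.4 and 68.6 CPM without and 77.7, 83.0 and 80.4 CPM after UV (0.16, 95% interval −0.05 to 0.37, adjusted p = 0.31).

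*Trp53* in WT SDLN was at 168, 165 and 177 CPM without and 169, 179 and 168 CPM after UV, and the 95% interval of its log2 difference was −0.14 to 0.18 (adjusted p = 0.905 by edgeR). *Bax* (0.13, −0.09 to 0.35), *Ccng1* (0.11, −0.09 to 0.31), *Gadd45a* (−0.17, −0.58 to 0.24) and *Cdkn1a* (−0.26, −0.81 to 0.28) also did not pass. *Cdkn1a* had 114 to 199 and *Gadd45a* 121 to 216 counts in these libraries. *Cdkn2a* (14 to 36 counts) and *Phlda3* (18 to 32 counts) had intervals of −0.87 to 0.78 and −1.09 to 0.64.

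Among the other lists in WT SDLN, 3 of 44 tested p53 targets were higher after UV (6.82%, beside 2.92% of all genes) and 0 lower. *E2f7*, a repressor of replication genes, rose from 0.887 ± 0.321 to 2.44 ± 0.737 CPM (SD, n = 3 each, adjusted p = 0.0414 by edgeR). *Plk3*, another of these targets, rose by 0.73 (SE 0.13). In the separate list of CDK inhibitors 1 of 6 was called higher, *Cdkn1b*, which encodes p27, at 0.78 (SE 0.13). *Brca1* (0.60, SE 0.14) and *Rad51c* (0.83, SE 0.20) of homologous recombination and *Ercc2*, a helicase of nucleotide excision repair (0.55, SE 0.14), were also higher. The median log2 fold change over 12 proliferation genes was 1.01 without a call, and their summed level was 261 to 323 CPM without and 385 to 556 CPM after UV. Of all tested genes 2.06% were called lower, which stands beside the marker counts that follow. Endothelial genes fell in 2 of 5, with a mean of 2.20 to 2.81 log2 CPM without and 1.36 to 2.06 after UV. Fibroblast genes fell in 1 of 7, with a mean of 3.23 to 3.70 without and 1.84 to 2.82 after UV, and T cell genes in 1 of 8 and adipocyte genes in 1 of 2 tested. Erythroid genes fell in 3 of 5 tested, from a summed 121 to 261 CPM to 10.8 to 39.5 CPM, and germinal centre genes summed to 63.4 to 76.5 CPM without and 112 to 163 CPM after UV with 0 of 6 called. The part of these markers in the *Sesn2* difference was not tested.

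In *Ifnk* TG SDLN, edgeR called 0 of 9 members and 0% of all genes after UV, with 1507 genes at an unadjusted p under 0.05. DESeq2 called 118 genes and no member. At an unadjusted p under 0.05 there were 2 members. *Cdkn2a* had 50, 58 and 46 counts in TG NoTx replicates 4, 5 and 6 and 22, 18 and 27 counts in TG UV replicates 10, 11 and 12, a log2 difference of −1.04 (SE 0.37, adjusted p = 0.424). *Cdkn1a* was at 6.65, 8.71 and 5.39 CPM without and 6.11, 3.17 and 4.31 CPM after UV (−0.61, SE 0.25, adjusted p = 0.476), and these groups overlapped. *Cdkn2a* and *Ccng1* were the 2 members without overlap, against 13.3% of all genes. *Sesn2* was at 9.73, 8.74 and 10.5 CPM without and 9.71, 9.71 and 11.9 CPM after UV, with an interval of −0.23 to 0.46 for the log2 difference. Whether the UV response differed between the genotypes was tested as an interaction, in which 0 of 9 members and 0% of all genes passed with edgeR. DESeq2 called 8 genes and no member, and an unadjusted p under 0.05 was found for 881 genes and no member. The interaction of *Sesn2* was −0.48 (95% interval −0.96 to 0.01, adjusted p = 0.848) and that of *Cdkn2a* −1 (−2.15 to 0.15, 0.848).

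**Figure D5:**
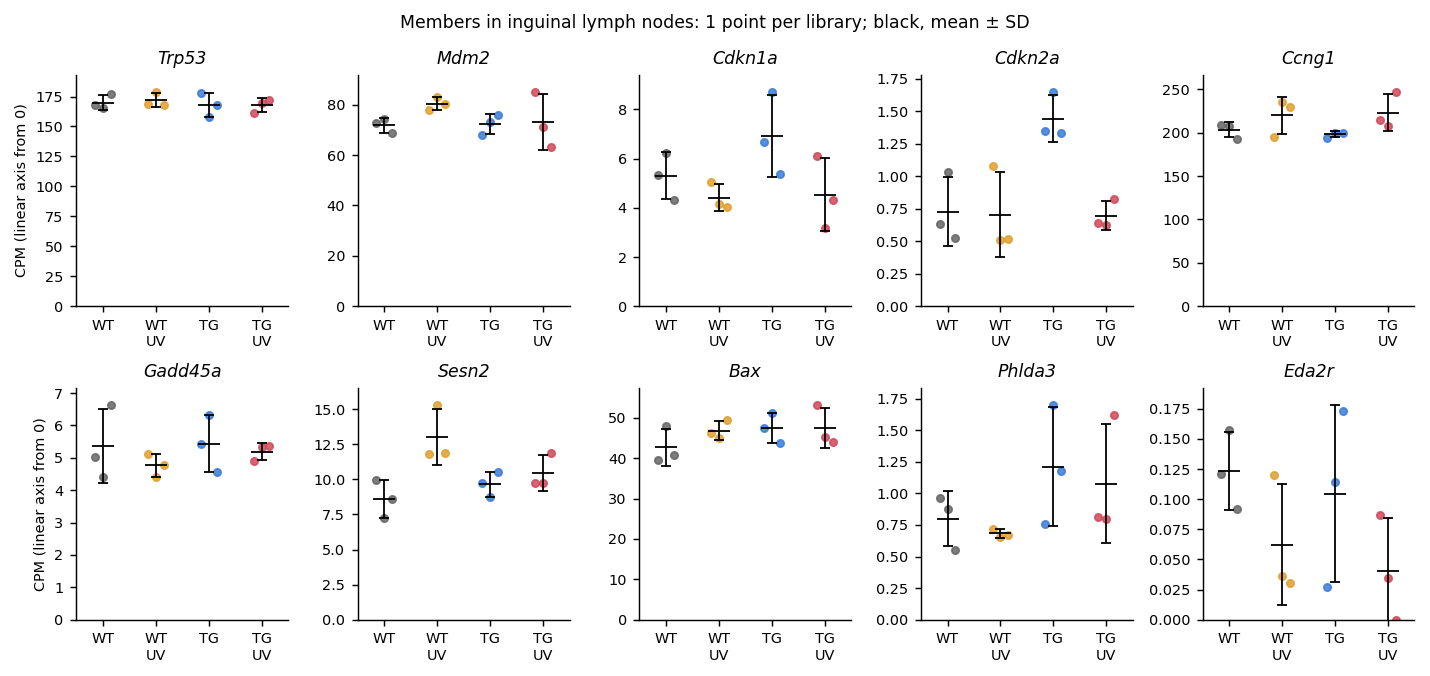
Each panel shows 1 member in SDLN as CPM on a linear axis from 0, with 1 point per library and the mean ± SD in black for 3 libraries each of WT, WT after UV, *Ifnk* TG and *Ifnk* TG after UV. *Sesn2* in WT mice lies at 7.24 to 9.96 CPM without and 11.8 to 15.3 CPM after UV, and *Eda2r* stays at or below 0.173 CPM.

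*Ifnk* TG and WT SDLN were compared to ask whether the transgene in the epidermis altered the pathway in the draining node. Without UV, 0 of 9 members and 0% of all genes passed with edgeR, 549 genes had an unadjusted p under 0.05, and DESeq2 called 4 genes and no member. *Cdkn2a* was the 1 member with an unadjusted p under 0.05 and without overlap, against 10.5% of all genes without overlap. It had 50, 58 and 46 counts in TG and 21, 33 and 17 counts in WT SDLN (0.98, SE 0.37, adjusted p = 1). After UV, 0 of 9 members and 0% of all genes passed with edgeR, and DESeq2 called 12 genes and no member. An unadjusted p under 0.05 was found for 1131 genes and no member. *Phlda3* was the 1 member without overlap, against 9.71% of all genes, with 28, 23 and 53 counts in TG and 24, 18 and 22 in WT SDLN (0.66, SE 0.40, adjusted p = 0.762). *Trp53* was at 158 to 178 CPM in TG and 165 to 179 CPM in WT SDLN over both treatments, and its intervals between genotypes were −0.18 to 0.15 without and −0.20 to 0.12 after UV. *Eda2r* had 0 counts in TG UV replicate 12, which allows a share of up to 8.67e-06% of that library for counting error alone.

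Across the 9 skin libraries, the genes whose profile was nearest to each called member were found by the root mean square difference of centred log2 CPM. *Gm7336* (0.11), *Epm2a*, which encodes the glycogen phosphatase laforin (0.14), and *Gm13394* (0.14) were nearest to *Ccng1*, whose own SD was 1.31. *Gm7336* and *Gm13394* are annotated as processed pseudogenes. *Herc3* (0.20), *Thsd4* (0.21) and the listed p53 target *Tigar* (0.22) were nearest to *Eda2r*. The nearest to *Bax* were *Ptges3* (0.07), *Psma1* (0.08) and *Tor2a* (0.08), and to *Trp53* the RNA export and processing genes *Nxf1* (0.07), *Pan2* (0.08) and *Snrnp70* (0.09). *Septin9* (0.06), *Vipas39* (0.06) and *Zfp282* (0.07) were nearest to *Cdkn1a*, *Ankrd42* (0.08), *Ak6* (0.09) and *Bud31* (0.09) to *Gadd45a*, and *Chst12* (0.08), *Frg2f1* (0.10) and *Ficd* (0.10) to *Phlda3*. Across the 12 SDLN libraries, *Mxd4* (0.08), *Traf4* (0.10) and *Cpox* (0.10) were nearest to *Sesn2*. These distances describe the libraries at hand and were not tested.

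Annotated genes overlap 4 of the members on GRCm38. *Cdkn1a* and *Gadd45a* overlap genes on the opposite strand (*AC167363.2* and *E230016M11Rik*), and *Sesn2* and *Bax* overlap genes on their own strand (*Gm12981* and *Gm45808*). Whether the counting used strand is not given in the sources used here, so the counts of these 4 members could include or lose reads of the overlapping genes.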

How the data were processed

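Poly-A RNA libraries of 9 skin and 12 SDLN samples were analysed. Per the labels, reads were trimmed with cutadapt 4.8, aligned to GRCm38 with STAR 2.7.8a and quantified with RSEM 1.3.3. The authors deposited expected counts per gene, which are whole numbers and not normalised. The annotation release is not given in the sources used here. Groups came from the labels, which place all libraries in batch 1. In R 4.3.3, edgeR 4.0.16 removed low genes (filterByExpr, minimum count 10, minimum total 15) and TMM set library sizes. For each tissue 1 model held every library and used the robust quasi-likelihood F-test. The Benjamini-Hochberg correction ran across the whole tested table with a threshold of 0.05, and every adjusted p in the text comes from edgeR unless DESeq2 1.42.0 is named. Standard errors were derived from the F statistic. CPM are edgeR's, and log2 CPM used a prior count of 2. Exon lengths and positions came from GENCODE M21, promoters from RefSeq GRCm38.p6.

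All 10 members are named with their values in L and WT skin. In comparisons with few calls, members that neither passed nor separated the groups are named in part. For the other lists, up to 3 called genes without overlap and with the largest absolute log2 fold change are named per list and comparison (1 such gene is not reported here), and nearest genes needed a mean of at least 1 CPM. *Bbc3*, *Fas*, *Trp63*, *Mdm4* and *Cdkn2b* were named after their values were seen. The members and lists were chosen with earlier results of these data known. Members of the other lists may share S phase or mitotic expression, and 1 gene can be in more than 1 list. The pipeline was tested on simulated counts. No 2 replicates agreed within sampling noise.

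Libraries held 27599809 to 56511276 counts, and 3 counts are 5.31e-06% to 1.09e-05% of a library. There are no molecular identifiers, so such floors cover counting error only. Alternatives were DESeq2, RLE normalisation, no filter, at least 10 counts in every library, a non-robust fit, *Xist* as a covariate, the compared groups alone, muscle, fat and hair shaft genes left out in skin, the muscle list as a covariate in skin, and each library left out in turn.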

Additional observations from a re-analysis of the deposited data

Results flagged for a closer look

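*Phlda3* in L skin held 1 library apart from the others. Replicates 4, 6 and 7 were at 98.6, 99.2 and 100 CPM and replicate 5 was at 84.4 CPM. The gap between replicate 5 and the nearest library was 0.913 of the group's range. This was above Dixon's 95% critical value for 4 samples, which chance exceeds in about 1 of 20 groups. All 10 members were screened in L skin, the only group of 4 libraries, and only *Phlda3* exceeded it. *Phlda3* was called lower in L than WT skin with any 1 skin library left out.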

How the results depend on the processing

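No called member changed direction under any alternative. Of 576 member values from settings that keep every library, 561 stayed on their side of the threshold, 14 lost a call and 1 gained one, and of 810 values without 1 library these numbers were 791, 17 and 2. Values that were not called changed sign in 11 and 64 cases, *Sesn2* in L against WT skin among them (0.10, and −0.14 with the muscle covariate). For L against WT skin, the muscle list as a covariate left 2585 genes and 3 members called. For L against NL skin it left 1249 genes and 1 member, and the compared groups alone gave 3156 genes and 3 members, with *Cdkn1a* (adjusted p = 0.067) and *Gadd45a* (0.0677) lost. For NL against WT skin DESeq2 called 63 genes and the compared groups alone 1. After UV in WT SDLN, DESeq2 called 1942 genes, the compared groups alone 2431 and the *Xist* covariate 170, and *Sesn2* was lost, leaving 0 members, with RLE (adjusted p = 0.0503), no filter (0.0568), a non-robust fit (0.0508) and the *Xist* covariate (0.0806). DESeq2 called 118 genes after UV in *Ifnk* TG SDLN, 4 between genotypes without UV, 12 after UV and 8 in the interaction, and no filter gave 1 gene between genotypes after UV. The causes were not tested.

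Without 1 library, called genes ranged from 6243 to 8028 in L against WT skin (members 7 to 7), from 1182 to 5187 in L against NL skin (members 1 to 6), from 0 to 2644 after UV in WT SDLN (members 0 to 1), from 0 to 236 after UV in *Ifnk* TG SDLN, from 0 to 1 between genotypes without UV, from 0 to 2 after UV, and from 0 to 1 in the interaction. No paired analysis was possible because the labels do not name the animals. Depth limits *Cdkn2a*, *Phlda3* and *Eda2r* in SDLN, which had at most 60 counts in a library.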
